A study of Schmidtea mediterranea with 48 samples.

Results

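Gene expression was compared directly between planarians given RNA interference (RNAi) against zfp1 and planarians given RNAi against sox8, both on day 12. Of the 48 libraries of the series, 8 belong to this comparison, 4 after zfp1 RNAi and 4 after sox8 RNAi. The animals were Schmidtea mediterranea of the asexual CIW4 clonal line, so all groups share a genotype. They ate liver paste mixed with HT115 bacteria that express double-stranded RNA, in 3 feedings spaced 3 days apart, and polyA RNA came from whole worm tissue. The groups used were zfp1, sox8 and pax5 RNAi on days 6, 12 and 18, and as a control unc22 RNAi on the same days, with 4 libraries each. unc22 is a nematode muscle gene that is widely used as a control target in planarians. In the contrast of zfp1 with sox8 it was on neither side and showed the reference level. All 48 libraries were fitted together, so the unc22 and pax5 libraries also entered the estimate of spread behind its p-values. It was also the control side of the tests of pax5 on day 12 and of sox8 on days 6 and 18. The table holds 28413 transcript features, and the 22667 (79.8%) with a mean of at least 0.5 RPKM (read counts corrected for feature length and library depth) over all 48 libraries were tested.

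Planarians replace their tissues from dividing stem cells called neoblasts. The outer epidermis does not divide. It is renewed by neoblast daughters that leave the cycle, pass through several progenitor states while they move outwards, and then join the epidermis. zfp1 encodes a zinc finger protein that planarians need for this epidermal lineage. The Sox and Pax families are transcription factors that bind DNA through a high mobility group box and a paired domain. In vertebrates SOX8 acts in neural crest derivatives, glia and the gonad, and PAX5 in B cells. The study's purpose, per its title, was to find transcriptional targets of the 3 factors. The direct contrast asks which transcripts separate the zfp1 knockdown from the sox8 knockdown at the middle time point.

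Features are named by their SMED30 identifiers, because no identifier comes with a gene name in the table. The transcripts of the targeted genes, and the markers of neoblasts, epidermal progenitors and other cell types, were therefore not analysed here, and roles of single features are not given. The labels do not say what a replicate was. The p-values therefore speak only of the spread among libraries, estimated over all groups of the series, part of which may be technical. On day 12 the recovered depth was 8872596, 23429724, 8335911 and 24166134 reads in zfp1 replicates 1 to 4, against 16143856 to 24297681 reads in the sox8 libraries and 19136883 to 22122920 reads in the unc22 libraries. zfp1 replicates 1 and 3 were thus the shallowest of these 12 libraries. The first principal component of the 8 libraries held 33.9% of the variance and separated all zfp1 libraries (0.16 to 0.46) from all sox8 libraries (-0.39 to -0.29). The second held 19.3% and set shallow zfp1 replicates 1 (0.69) and 3 (-0.72) at opposite ends. No pair of day 12 replicates was a copy, since chi-square values of their read counts, per degree of freedom, ran from 1.77 to 4.27.

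The difference between the knockdowns lay mostly in features that were lower after zfp1 RNAi. In zfp1 worms 189 features were at least 2-fold lower than in sox8 worms, which is 0.834% of those tested, and 13 were at least 2-fold higher (0.0574%). Without a limit on size, 2981 features (13.2%) differed at an adjusted p under 0.05 (limma's moderated test on log2(RPKM + 0.5), Benjamini-Hochberg adjustment). Of these, 2012 were lower (8.88%) and 969 were higher (4.27%) in zfp1. Most differences were small. Of the lower features 1574 differed by less than 1.5-fold and 249 by 1.5-fold to 2-fold, while 170 were 2-fold to 4-fold lower and 19 at least 4-fold lower, 2 of them at least 8-fold. Of the higher features 827 differed by less than 1.5-fold and 129 by 1.5-fold to 2-fold, and 1 reached 4-fold. Median log2 differences were -0.31 for the lower features, 0.29 for the higher features and -0.01 for all features tested.

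The number of small calls and the split between directions moved with the setting. With all libraries thinned to the depth of the shallowest, 1479 features were called, 26% of them higher in zfp1. Without the 2 shallow zfp1 libraries, which also leaves fewer libraries, 1493 were called. With quantile normalization 1709 features were higher and 1757 lower, so that 49.3% of the calls were higher in zfp1, against 32.5% with the authors' scaling. At 2-fold or more, lower features outnumbered higher ones under every alternative run, with 149 to 249 lower and 7 to 45 higher. The features nearest the expression filter were SMED30001803 inside it (mean 0.509 RPKM in zfp1 and 0.508 RPKM in sox8) and SMED30027365 outside it (0.404 RPKM in zfp1 and 0.671 RPKM in sox8).

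**Figure D1:**
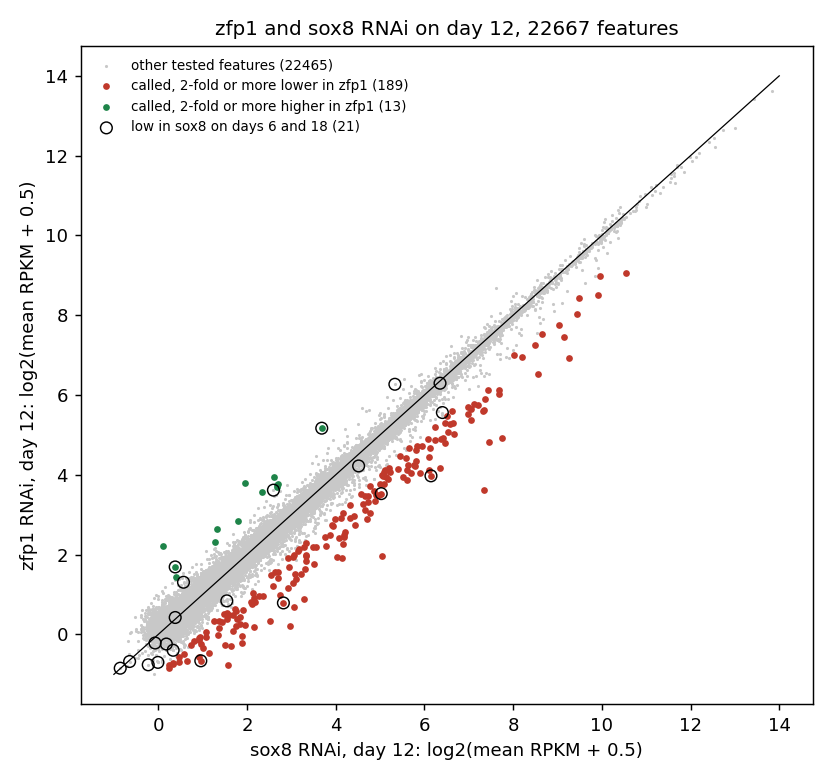
Mean level of each of the 22667 tested features on day 12, as log2(mean RPKM + 0.5), in zfp1 RNAi (vertical axis) against sox8 RNAi (horizontal axis); the line marks equal levels. The 189 features called at least 2-fold lower in zfp1 (red) reach from near 0 to the high end of the scale, the 13 called at least 2-fold higher (green) lie in the lower part, and circles mark the 21 features that were low in sox8 on days 6 and 18.

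Most of the 189 lower features stood near the control level in sox8 worms and well below it in zfp1 worms. The zfp1 mean was more than 1.5-fold below the unc22 mean in 188 of them and within 1.5-fold in 1. The sox8 mean was within 1.5-fold of unc22 in 170, more than 1.5-fold above in 13 and more than 1.5-fold below in 6. The median level was 29.7% of unc22 in zfp1 and 90.8% of unc22 in sox8, given as a description of the control level with no test. In 187 of the 189 the 4 zfp1 libraries did not overlap the 4 sox8 libraries. The same libraries chose the 189, so this separation is a description and no test. Over all features tested, 12.1% had every zfp1 library below every sox8 library. In whole-worm RNA, fewer cells of a type and less RNA per cell cannot be told apart.

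Together these 189 features made up 0.630%, 0.609%, 0.672% and 0.859% of the summed RPKM in zfp1 replicates 1 to 4. In the sox8 libraries they made up 1.83%, 1.74%, 1.86% and 1.78%, and in unc22 2.25% ± 0.0442 (SD, n = 4). The highest zfp1 share, in replicate 4, stayed below the lowest sox8 share, which the choice of the features on these libraries favours. Replicate 4 also had the mildest median fall of the zfp1 libraries, though not the mildest fall in every feature. Its median log2 difference from the sox8 mean over the 189 features was -1.08, against -1.50, -1.49 and -1.44 in replicates 1 to 3. Their median length, inferred from the RPKM values, was 699 bases (quartiles 486 and 1359), against 1098 bases over all features tested (quartiles 597 and 1835). Their median unc22 level was 18.7 RPKM, against 6.21 RPKM over all features, with 37 of the 189 at 100 RPKM or more and 52 under 5 RPKM. The 2012 lower features of any size had a median unc22 level of 16.6 RPKM, and selection on log2(RPKM + 0.5) favours higher levels.

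The 12 largest falls were chosen among called features whose zfp1 and sox8 libraries did not overlap, so their separation follows from that choice. The largest fall was that of SMED30032293. It had 8.37, 8.59, 12.8 and 17.0 RPKM in the zfp1 libraries, against 169, 151.5, 171.5 and 155 RPKM in the sox8 libraries and 153 to 172 RPKM in unc22. All zfp1 libraries lay far below all sox8 libraries, which covered about the same range as the control. The log2 difference was -3.79 (SE 0.15, limma adjusted p = 2.35e-23).

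SMED30012332 followed, with 3.35, 2.34, 3.97 and 3.98 RPKM in zfp1, against 33.4, 32.0, 34.9 and 29.8 RPKM in sox8 and 34.9 to 39.2 RPKM in unc22. Its log2 difference was -3.10 (SE 0.10, limma adjusted p = 5.58e-26). These 2 features are the ones past 8-fold. SMED30023017 had 30.2, 17.5, 37.4 and 33.2 RPKM in zfp1, against 224, 211, 218 and 207 RPKM in sox8. Its log2 difference was -2.89 (SE 0.25, limma adjusted p = 8.04e-12), and the libraries did not overlap, as the rule of choice required.

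SMED30023924 had 28.7, 21.8, 26.9 and 34.7 RPKM in zfp1, against 177, 158, 194 and 170.1 RPKM in sox8, a log2 difference of -2.64 (SE 0.10). SMED30032042, the most abundant of the 12 largest falls, had 129, 77.0, 149 and 127 RPKM in zfp1, against 679, 587, 622 and 546 RPKM in sox8. Its log2 difference was -2.37 (SE 0.27, limma adjusted p = 5.84e-09). In both features the sox8 libraries lay at or near the control range, which was 168 to 206 RPKM for SMED30023924 and 547 to 592 RPKM for SMED30032042.

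The falls at low levels rest on few reads. SMED30028674 had 1.05, 0.992, 0.560 and 0 RPKM in zfp1, which is 0 to 5 reads a library, against 6.88, 8.14, 7.28 and 6.82 RPKM in sox8. Its fitted log2 difference of -2.88 depends on the pseudocount. SMED30010402 had 0, 0.0850, 0 and 0.251 RPKM in zfp1, or 0 to 3 reads, against 1.83, 2.07, 3.12 and 2.92 RPKM in sox8. It stands at 0 in all 4 pax5 libraries of day 12 as well.

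SMED30020041 had 0.790 to 1.47 RPKM in zfp1, against 7.24 to 8.61 RPKM in sox8, a log2 difference of -2.38 (SE 0.15). SMED30003044 had 0.555, 0.489, 0.394 and 1.65 RPKM in zfp1, against 4.25 to 6.66 RPKM in sox8, a log2 difference of -2.24 (SE 0.18). SMED30026101 had 2.70 to 4.20 RPKM in zfp1, against 16.6 to 17.6 RPKM in sox8, also -2.24 (SE 0.13). None of the 3 overlapped between the knockdowns, which was a condition for their choice.

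Among the 12 largest falls, SMED30020396 and SMED30029247 depart from the pattern of control-like sox8 levels. SMED30020396 had 10.7, 7.63, 13.2 and 29.4 RPKM in zfp1, against 65.6, 73.7, 71.3 and 71.2 RPKM in sox8 and 365 to 402 RPKM in unc22. It was thus low in both knockdowns, and lower in zfp1, with a log2 difference of -2.35 (SE 0.30, limma adjusted p = 1.26e-07). SMED30029247 had 0.902, 1.02, 2.24 and 1.23 RPKM in zfp1, against 14.9, 12.6, 4.66 and 5.05 RPKM in sox8 and 1.67 to 9.04 RPKM in unc22. Its sox8 and control libraries varied widely, its log2 difference of -2.29 (SE 0.53) had a limma adjusted p of 0.00204, and it was not called in a voom fit on recovered reads, where the difference was -2.65 (adjusted p = 0.233).

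**Figure D2:**
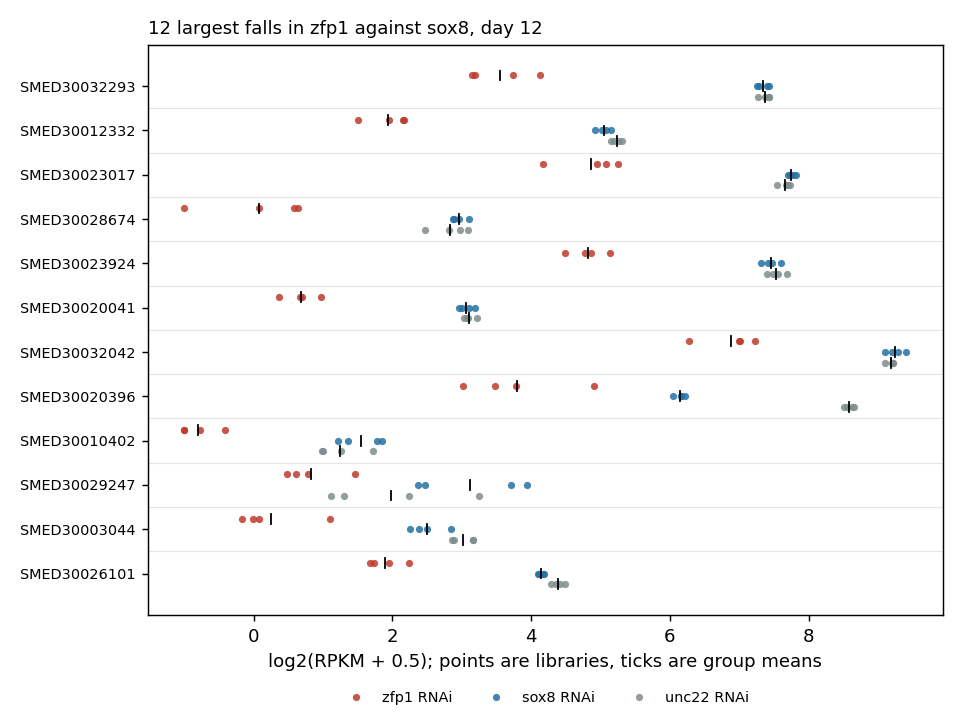
Level of the 12 features with the largest falls on day 12, as log2(RPKM + 0.5), for each zfp1, sox8 and unc22 library (points, 4 per group) with the group mean (tick). By the rule of their choice the 4 zfp1 points lie left of the 4 sox8 points in every feature. In all but SMED30020396 and SMED30029247 the sox8 mean lies within about 1 unit of the unc22 mean.

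The 4 lower features with the highest means over the 8 libraries were each 2-fold to 4-fold lower in zfp1. SMED30005838 had 420, 454, 537 and 733 RPKM in zfp1, against 1369, 1437, 1606 and 1560.0 RPKM in sox8 and 1886 to 2155 RPKM in unc22. The log2 difference was -1.51 (SE 0.11, limma adjusted p = 4.52e-14). The sox8 libraries lay between the zfp1 and the control libraries and overlapped neither.

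SMED30030996 had 467, 412, 489 and 639.8 RPKM in zfp1, against 935 to 1070.0 RPKM in sox8 and 1290.0 to 1467 RPKM in unc22, a log2 difference of -1.01 (SE 0.10). SMED30026394 had 323, 292, 336 and 437 RPKM in zfp1, against 681 to 764 RPKM in sox8 and 910.4 to 1050.0 RPKM in unc22, a log2 difference of -1.07 (SE 0.10). Both thus showed the same order of groups as SMED30005838, with sox8 in the middle. SMED30015362 had 362, 335, 324 and 432 RPKM in zfp1, against 980, 937, 984 and 933 RPKM in sox8, a log2 difference of -1.41 (SE 0.09, limma adjusted p = 1.0e-15). Its sox8 libraries overlapped the unc22 range of 967.5 to 1137 RPKM.

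The features that rose after zfp1 RNAi relative to sox8 RNAi were fewer. Their number rests on the setting and on single libraries, with 7 at a pseudocount of 1, 45 at a pseudocount of 0.1, 22 without zfp1 replicate 3 and 20 without zfp1 replicate 4. Of the 13, the zfp1 mean was more than 1.5-fold above unc22 in 10, within 1.5-fold in 1 and more than 1.5-fold below in 2. The sox8 mean was within 1.5-fold of unc22 in 9 and more than 1.5-fold below in 4. Their median unc22 level was 5.53 RPKM, against 6.21 RPKM over all features tested, and their median length was 531 bases. In 11 of the 13 the libraries did not overlap, where 6.82% of all features tested had every zfp1 library above every sox8 library. The same libraries chose the 13, so this too is no test.

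SMED30003487 rose most. It had 3.87, 4.87, 4.22 and 3.52 RPKM in zfp1, against 0.540, 0.476, 0.664 and 0.598 RPKM in sox8 and 0.572 to 2.62 RPKM in unc22. The log2 difference was 2.11 (SE 0.26, limma adjusted p = 2.44e-08). Every zfp1 library was above every sox8 and every control library.

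SMED30023374 had 13.6, 16.4, 14.7 and 15.3 RPKM in zfp1, against 4.96, 5.80, 4.87 and 6.88 RPKM in sox8 and 6.43 to 9.23 RPKM in unc22, a log2 difference of 1.35 (SE 0.13). SMED30032680 had 12.0, 11.5, 11.3 and 10.4 RPKM in zfp1, against 4.98, 4.07, 5.46 and 3.76 RPKM in sox8, a log2 difference of 1.24 (SE 0.14). SMED30000949 had 11.6, 13.6, 12.7 and 13.5 RPKM in zfp1, against 6.01, 6.01, 5.84 and 5.55 RPKM in sox8, a log2 difference of 1.07 (SE 0.09, limma adjusted p = 1.27e-12). The zfp1 libraries of these 3 were tight and stood clear of both other groups.

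SMED30005998 had 12.0 to 13.3 RPKM in zfp1, against 5.11 to 7.0 RPKM in sox8, a log2 difference of 1.03 (SE 0.11). SMED30032357 had 8.68 to 15.5 RPKM in zfp1, against 5.27 to 7.21 RPKM in sox8, and SMED30002575 had 5.72 to 7.87 RPKM in zfp1, against 2.46 to 3.42 RPKM in sox8. Both differed by 1.04 on the log2 scale (SE 0.17 and SE 0.14). The remaining 4 named rises, SMED30035874 (1.32), SMED30003318 (1.03), SMED30012228 (1.01) and SMED30011783 (0.99), were at 6.54 RPKM or less in every zfp1 and sox8 library. At equal depth SMED30035874, SMED30012228 and SMED30011783 were no longer called (limma adjusted p = 0.218, 0.0517 and 0.102), with log2 differences of 1.08, 1.13 and 0.92.

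SMED30025741 is counted among the rises but was low in both knockdowns. It had 25.4, 20.8, 34.0 and 61.7 RPKM in zfp1, against 10.1, 12.0, 13.9 and 13.4 RPKM in sox8 and 444 to 495 RPKM in unc22. The log2 difference of 1.37 (SE 0.27, limma adjusted p = 0.00032) is therefore a smaller loss in zfp1 than in sox8.

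**Figure D3:**
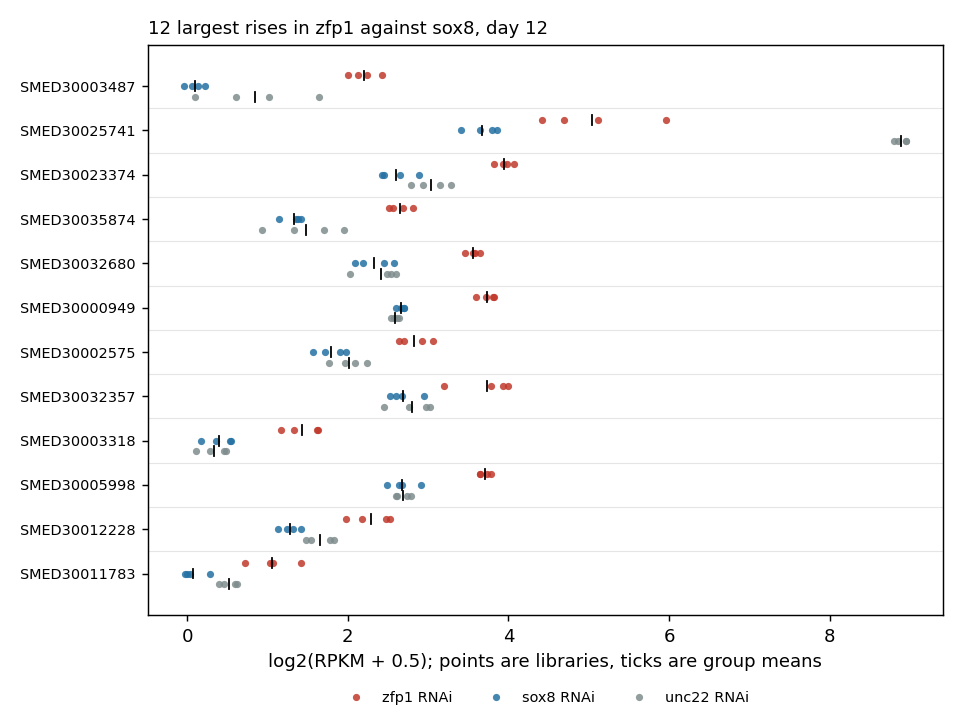
Level of the 12 features with the largest rises on day 12, as log2(RPKM + 0.5), for each zfp1, sox8 and unc22 library (points, 4 per group) with the group mean (tick). By the rule of their choice the 4 zfp1 points lie right of the 4 sox8 points in every feature. SMED30025741 alone has its unc22 points far to the right of both knockdowns.

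Some features were low in both knockdowns, and among these the direct contrast went both ways. A list of 21 features was formed from other libraries, as those at least 2-fold lower in sox8 than in unc22, with an adjusted p under 0.05, on both day 6 and day 18. On day 12 their median level was 6.72% of unc22 in zfp1 (range 2.81% to 18.3%) and 10.2% of unc22 in sox8 (range 2.11% to 53.9%). In the contrast of zfp1 with sox8, 9 of the 21 were lower, 4 were higher and 8 were not called, with a median log2 difference of -0.35, beside shares of 8.88% lower and 4.27% higher over all features. Members lay on both sides of 0, and 6 of the 21 differed by 2-fold or more. The 95% intervals of the 8 uncalled features ran from -1.21 to 1.52 on the log2 scale. Of these, 6 had a sox8 mean under 1 RPKM, where the pseudocount compresses differences, so their intervals do not show that the knockdowns were alike. The counts depend on the setting. The list was formed anew in each setting, so its members there can differ from the 21. With the groups compared alone in the fit 5 of the list so formed were lower and 1 was higher. Without the 2 shallow zfp1 libraries 5 were lower and 2 were higher.

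The most abundant members show how alike and how unlike the knockdowns were. SMED30014876 had 57.0, 46.4, 69.6 and 139 RPKM in zfp1, against 67.5, 83.2, 91.3 and 82.8 RPKM in sox8 and 994 to 1125 RPKM in unc22. The zfp1 and sox8 libraries overlapped, and the log2 difference was -0.18 with a 95% interval of -0.65 to 0.29 (limma adjusted p = 0.696). Its sign turned without zfp1 replicate 2, to 0.02. SMED30002134 had 57.4, 49.8, 61.5 and 138 RPKM in zfp1, against 33.4, 43.2, 44.3 and 38.4 RPKM in sox8 and 1070.0 to 1189 RPKM in unc22. It was called higher in zfp1 by 0.82 (SE 0.25, limma adjusted p = 0.0253), but not without zfp1 replicate 4 (0.49, adjusted p = 0.189). The call was also lost with the groups compared alone in the fit (limma adjusted p = 0.136). The same held without sox8 replicate 1 (adjusted p = 0.0799) and without sox8 replicate 4 (adjusted p = 0.0543).

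SMED30011419 had 35.3, 29.3, 44.1 and 78.2 RPKM in zfp1, against 77.1, 87.8, 87.7 and 84.4 RPKM in sox8 and 508 to 579 RPKM in unc22, a log2 difference of -0.94 (limma adjusted p = 0.000696, and 0.0625 with the groups compared alone in the fit). Only zfp1 replicate 4 overlapped the sox8 range. SMED30035904 had 7.62, 5.98, 11.8 and 18.8 RPKM in zfp1, against 27.5, 34.9, 35.8 and 30.2 RPKM in sox8 and 299 to 329 RPKM in unc22, a log2 difference of -1.62 (SE 0.27). SMED30002242 had 0.876, 0.959, 0.932 and 2.15 RPKM in zfp1, against 5.53, 7.64, 6.12 and 6.99 RPKM in sox8 and 18.6 to 20.8 RPKM in unc22, a log2 difference of -2.08 (SE 0.14). In these 3 features the sox8 mean lay between the zfp1 mean and the control mean.

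SMED30008921 and SMED30031990 went the other way, with sox8 lowest. SMED30008921 had 1.51, 0.974, 3.89 and 4.55 RPKM in zfp1, against 0.582, 0.863, 1.19 and 0.575 RPKM in sox8 and 36.3 to 39.1 RPKM in unc22, a log2 difference of 1.15 (limma adjusted p = 0.00576). SMED30031990 had 8.22, 5.82, 11.7 and 21.3 RPKM in zfp1, against 4.58, 5.50, 6.98 and 5.13 RPKM in sox8 and 157 to 181 RPKM in unc22, a log2 difference of 0.88 (limma adjusted p = 0.0145). In both the libraries overlapped, and without zfp1 replicate 4 neither was called (limma adjusted p = 0.0504 for SMED30008921 and 0.127 for SMED30031990). Nor was either called with the groups compared alone in the fit (limma adjusted p = 0.0628 and 0.106) or with voom (adjusted p = 0.0878 and 0.0559). Without the 2 shallow zfp1 libraries both were also lost (limma adjusted p = 0.0573 and 0.054). SMED30008921 was lost at equal depth too (adjusted p = 0.122), and SMED30031990 without sox8 replicate 1 (adjusted p = 0.0517).

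SMED30008505 had 0.827 to 1.92 RPKM in zfp1, against 1.96 to 3.15 RPKM in sox8 and 22.2 to 25.7 RPKM in unc22, a log2 difference of -0.72 (limma adjusted p = 0.00327). This call was lost at equal depth (-0.45, adjusted p = 0.317), with voom (-0.79, adjusted p = 0.117) and without the 2 shallow zfp1 libraries (-0.50, adjusted p = 0.166). SMED30026763 had 0 to 0.268 RPKM in zfp1, which is 0 to 4 reads, against 0.814 to 2.10 RPKM in sox8 and 3.72 to 4.82 RPKM in unc22. Its fitted log2 difference was -1.59 (limma adjusted p = 1.36e-08). Of the 21 features, 4 were among the 189 lower features (4 of 21), beside 0.834% of all features tested. A further 2, SMED30025741 and SMED30008921, were among the 13 higher features (2 of 21), beside 0.0574% of all features tested.

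On day 6 the same features stood higher in zfp1 than in sox8. Their median then was 54.8% of unc22 in zfp1 (range 35.3% to 93.8%) and 10.5% of unc22 in sox8 (range 3.82% to 36.6%). On day 18 it was 6.99% of unc22 in zfp1 (4.22% to 37.9%) and 9.66% of unc22 in sox8 (1.46% to 32.3%). Since the sox8 and unc22 libraries of days 6 and 18 chose the list, the values of those days are given with no test. SMED30014876 shows the course in full. It averaged 1063 ± 139 RPKM in zfp1 on day 6, 78.1 ± 41.9 RPKM on day 12 and 56.8 ± 29.0 RPKM on day 18 (SD, n = 4 each). In sox8 it averaged 171 ± 41.4, 81.2 ± 9.91 and 62.9 ± 7.96 RPKM on the same days, and in unc22 1872 ± 152, 1073 ± 56.0 and 988 ± 28.3 RPKM.

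**Figure D4:**
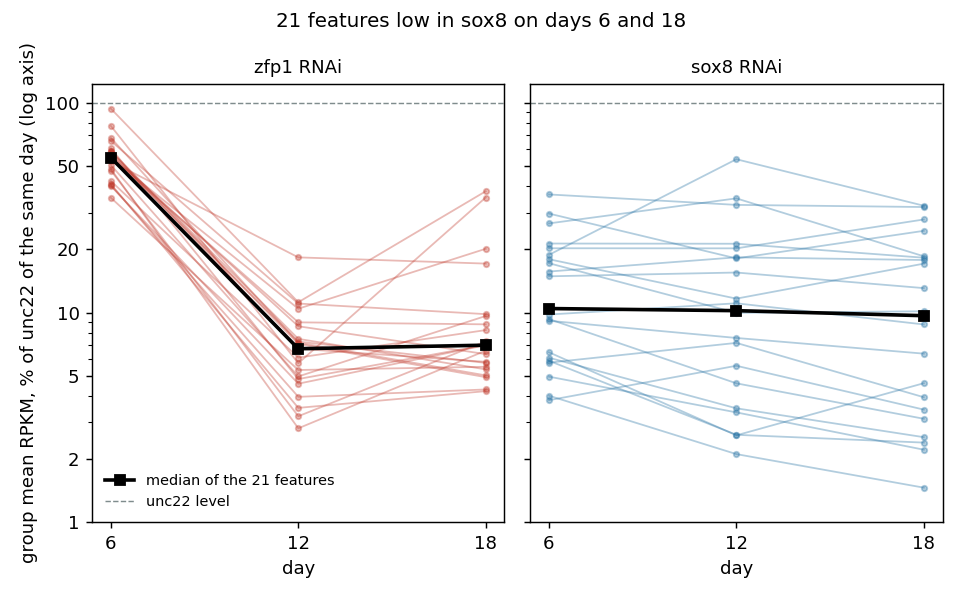
Mean RPKM of each of the 21 features that were low in sox8 on days 6 and 18, as a percentage of the unc22 mean of the same day (log axis), on days 6, 12 and 18 in zfp1 RNAi (left) and sox8 RNAi (right); thick lines join the medians. The zfp1 median was 54.8%, 6.72% and 6.99% on the 3 days, while the sox8 median was 10.5%, 10.2% and 9.66%.

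The contrast between zfp1 and sox8 grew with the days of sampling. It gave 1028 called features on day 6 (4.54%), of which 686 were lower (3.03%) and 342 higher (1.51%) in zfp1, and 5197 on day 18 (22.9%), with 3286 lower (14.5%) and 1911 higher (8.43%). At 2-fold or more, 16 were lower and 24 higher on day 6 (0.0706% and 0.106%), and 420 were lower and 105 higher on day 18 (1.85% and 0.463%). The 13 features at least 2-fold higher on day 12 were fewer than on day 6. Of the 24, 15 belong to the 21 features low in sox8 (15 of 21), an overlap that the choice of the 21 on the same sox8 libraries of day 6 favours. The day 6 count rests on single libraries. It was 1949 without zfp1 replicate 1, 1760 without sox8 replicate 4, 600 without zfp1 replicate 3, 494 without zfp1 replicate 4 and 382 without sox8 replicate 3, and 71 features were called with the 2 groups fitted alone. With that fit 50.7% of the day 6 calls were higher in zfp1, against 33.3% with all groups. With quantile normalization it was 46.1% on day 6 and 53.6% on day 18, against 36.8% on day 18 with the authors' scaling.

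The features that were lower on day 12 were mostly lower again on day 18, in libraries that did not choose them. Of the 189, 174 were called lower on day 18, beside 14.5% of all features, 2 were called higher, beside 8.43%, and 13 were not called. At least 2-fold lower were 155 (155 of the 420 of that day), beside 1.85% of all features. On day 6, 44 of the 189 were already lower, beside 3.03% of all features, 3 were higher, beside 1.51%, and 142 were not called. Their median log2 difference on day 6 was -0.20. The medians over the 189 were -1.38 on day 12 and -1.56 on day 18. Of the 13 higher features, 4 were higher on day 6, beside 1.51% of all features, and 11 on day 18, beside 8.43%. Of these 11, 9 were higher at 2-fold or more, beside 0.463% of all features. Of the 2012 features lower at any size, 1446 were lower on day 18 and 40 higher. Of the 969 higher features 427 were higher on day 18 and 15 lower. Over all features 14.5% were lower and 8.43% higher on that day.

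Several named features differed in the same direction on day 6 already. SMED30012332 averaged 14.4 ± 1.29 RPKM in zfp1 on day 6, against 38.4 ± 5.10 RPKM in sox8, a log2 difference of -1.38 (limma adjusted p = 2.33e-13). SMED30003487 averaged 5.82 ± 0.780 RPKM in zfp1 on day 6, against 1.31 ± 0.759 RPKM in sox8, a log2 difference of 1.89 (limma adjusted p = 2.62e-06), and its difference was 2.05 on day 18. SMED30032293 was lower on day 6 by a smaller margin, with a log2 difference of -0.76 (limma adjusted p = 0.00126). SMED30000949 was higher in zfp1 on each day, with log2 differences of 1.15 on day 6, 1.07 on day 12 and 0.80 on day 18. By contrast SMED30005838 was at 1950 ± 172 RPKM in zfp1 on day 6, against 1958 ± 254 RPKM in sox8, and SMED30015362 at 966 ± 110.1 RPKM in zfp1, against 966 ± 80.5 RPKM in sox8. Neither was called on day 6, with 95% intervals within 0.23 of 0 on the log2 scale for SMED30005838.

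The difference between days was tested itself. From day 6 to day 12 the zfp1 minus sox8 difference changed in 824 features (3.64%), becoming more negative in 552 (2.44%) and more positive in 272 (1.2%). From day 12 to day 18 it changed in 1963 features (8.66%), becoming more negative in 1258 (5.55%) and more positive in 705 (3.11%). Of the 189 lower features, 158 became more negative from day 6 to day 12 and none more positive, and from day 12 to day 18, 51 became more negative, 19 more positive and 119 were not called. The day 12 libraries chose the 189, so these counts describe them and are no test. The 12 largest falls stood at medians of 67.0%, 11.9% and 8.05% of unc22 in zfp1 on days 6, 12 and 18, and in sox8 at 95.5%, 97.4% and 97.7%. The 12 largest rises stood at 125.5%, 205% and 231% of unc22 in zfp1, and in sox8 at 89.4%, 83.9% and 105%.

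The most negative changes from day 6 to day 12 were those of SMED30020396 (-3.74, SE 0.42) and SMED30035904 (-3.63, SE 0.38). Both turned their sign, being called higher in zfp1 than in sox8 on day 6 (1.39 and 2.01) and lower on day 12 (-2.35 and -1.62). SMED30020396 averaged 269 ± 39.1 RPKM in zfp1 on day 6, against 104 ± 28.3 RPKM in sox8 and 664 ± 59.1 RPKM in unc22, and 15.2 ± 9.72 RPKM in zfp1 on day 12, against 70.4 ± 3.42 RPKM in sox8. SMED30032680 (1.16, SE 0.20) and SMED30005372 (1.16, SE 0.34) became more positive. SMED30032680 averaged 8.33 ± 1.41 RPKM in zfp1 on day 6, against 7.96 ± 1.74 RPKM in sox8, and so differed on day 12 but was not called on day 6 (limma adjusted p = 0.831). At equal depth its change between the days was 0.79 and was not called (limma adjusted p = 0.0999). SMED30005372 was at or below about 1 RPKM in most libraries, and its change was lost under many alternatives.

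Between day 12 and day 18 SMED30032042 (-3.03, SE 0.38) and SMED30022805 (-3.01, SE 0.44) fell further. SMED30032042 averaged 17.3 ± 12.9 RPKM in zfp1 on day 18, against 594 ± 42.9 RPKM in sox8. SMED30022805 averaged 91.0 ± 21.5 RPKM in zfp1 on day 12, against 380.1 ± 16.2 RPKM in sox8, and 12.3 ± 10.7 RPKM in zfp1 on day 18, against 317 ± 31.1 RPKM in sox8. SMED30004187 (5.22, SE 0.79) and SMED30029247 (5.04, SE 0.75) did the opposite and were the 2 of the 189 that were higher in zfp1 on day 18. With voom the change of SMED30004187 was 5.94 and was not called (adjusted p = 0.0767).

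SMED30004187 had 0.305, 0.575, 0.324 and 0.226 RPKM in zfp1 on day 12, against 4.81, 3.85, 1.35 and 2.79 RPKM in sox8, a log2 difference of -2.02 (SE 0.56, limma adjusted p = 0.0105). On day 18 it averaged 131 ± 98.8 RPKM in zfp1, against 12.1 ± 5.02 RPKM in sox8 and 5.22 ± 2.62 RPKM in unc22. SMED30029247 averaged 236 ± 126 RPKM in zfp1 on day 18, against 33.1 ± 12.4 RPKM in sox8 and 17.9 ± 6.59 RPKM in unc22. The zfp1 libraries of day 18 varied widely in both, and both were at low read counts in zfp1 on day 12 (1 to 5 reads for SMED30004187 and 3 to 11 reads for SMED30029247).

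The pax5 knockdown, whose libraries are on neither side of the contrast, divided the lower features. Of the 189, 87 were lower in pax5 than in unc22 on day 12, beside 4.2% of all features tested, 12 were higher, beside 2.06%, and 90 were not called. The median pax5 minus unc22 difference over the 189 was -0.34. Of the 13 higher features 2 were lower in pax5, SMED30025741 (-2.04) and SMED30008921 (-5.64), and 11 were not called. Of the 2012 features lower at any size 328 were lower in pax5 and 135 higher.

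The 87 features that were also lower in pax5 had a median unc22 level of 51.7 RPKM, with 10 under 5 RPKM, and a median pax5 minus unc22 difference of -0.76. Small differences are harder to call at low levels on this scale, so the split itself favours abundant features here. They held 0.483% ± 0.0911 of the summed RPKM in zfp1, 1.18% ± 0.0332 in sox8, 0.917% ± 0.0529 in pax5 and 1.60% ± 0.0375 in unc22 (SD, n = 4 each). SMED30005838, SMED30030996 and SMED30026394 are the most abundant of them, with pax5 means of 1438 ± 127, 1043 ± 69.7 and 716 ± 55.6 RPKM. On day 6, 7 of the 87 were lower in zfp1 than in sox8, beside 3.03% of all features, and on day 18, 84 were, beside 14.5%.

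SMED30020396 and SMED30035904 had lower means in pax5 than in either other knockdown. SMED30020396 had 5.10, 5.73, 4.69 and 8.85 RPKM in pax5, and SMED30035904 had 4.49, 4.74, 4.21 and 6.13 RPKM, which is -5.90 and -5.88 on the log2 scale relative to unc22. In both features the pax5 libraries overlapped the zfp1 libraries, and the difference between pax5 and zfp1 was not tested.

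The 90 features not called in pax5 had a median unc22 level of 7.51 RPKM, with 10 at 100 RPKM or more. SMED30015362, SMED30032042 and SMED30030681 were the most abundant of them. SMED30030681 had 168, 172, 185 and 215 RPKM in zfp1, against 408, 397, 405 and 403 RPKM in sox8, 378 to 425 RPKM in pax5 and 431 to 447 RPKM in unc22. SMED30032293, SMED30012332 and SMED30023017, the 3 largest falls, belong here too, with pax5 minus unc22 differences of -0.10, -0.06 and 0.16. On day 6, 33 of the 90 were lower in zfp1 than in sox8, beside 3.03% of all features. On day 18, 79 were lower, beside 14.5%, and 2 higher, beside 8.43%.

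The 12 features that were higher in pax5 had a median unc22 level of 12.8 RPKM and a median pax5 minus unc22 difference of 0.57. SMED30002689 had 109, 123, 123 and 141 RPKM in zfp1, against 298, 282, 289 and 312 RPKM in sox8, 316 to 339 RPKM in pax5 and 249.5 to 265.5 RPKM in unc22. SMED30003400 had 15.7 to 22.0 RPKM in zfp1, against 52.1 to 56.8 RPKM in sox8, 73.7 to 83.7 RPKM in pax5 and 48.5 to 54.0 RPKM in unc22. SMED30030679 had 14.9 to 19.7 RPKM in zfp1, against 39.1 to 44.1 RPKM in sox8, 59.4 to 62.0 RPKM in pax5 and 43.1 to 48.2 RPKM in unc22. In each of the 3 zfp1 was the lowest group and pax5 the highest, with no overlap of pax5 with any other group. Their zfp1 minus sox8 differences were -1.25, -1.59 and -1.25.

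**Figure D5:**
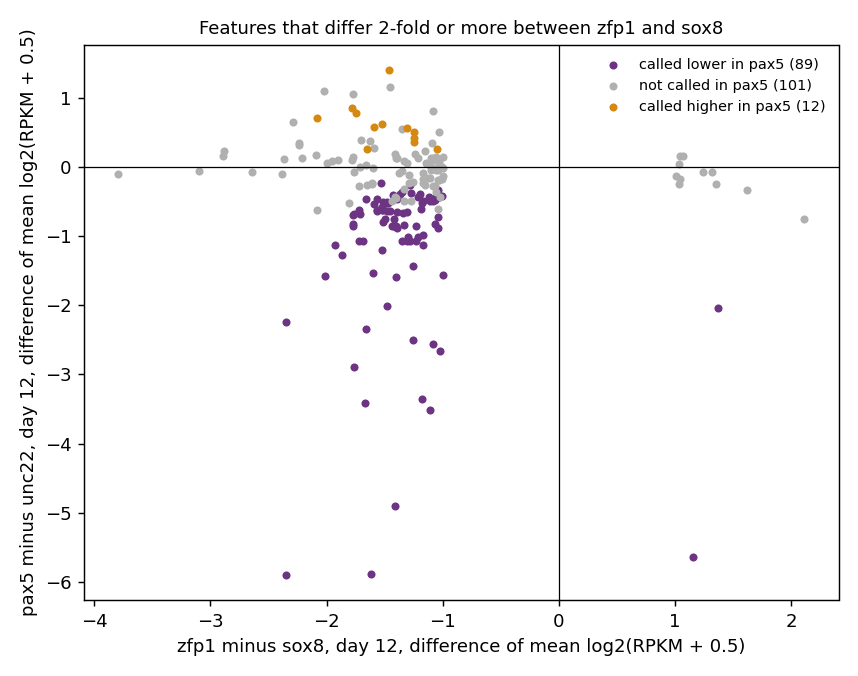
Difference of pax5 from unc22 (vertical axis) against the difference of zfp1 from sox8 (horizontal axis) on day 12, both as differences of mean log2(RPKM + 0.5), for the 189 lower and 13 higher features. Of the lower features 87 were called lower in pax5, 90 were not called and 12 were called higher; with the 13 higher features this makes 89, 101 and 12.

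The 21 features low in both knockdowns were also split in pax5, where 13 were lower, beside 4.2% of all features, 1 was higher, beside 2.06%, and 7 were not called. The higher one is SMED30002242, at 33.0 ± 1.91 RPKM in pax5, against 20.1 ± 1.02 RPKM in unc22 (0.70 on the log2 scale, limma adjusted p = 0.000421). Together the 21 made up 0.0395% ± 0.0200 of the summed RPKM in zfp1, 0.0455% ± 0.00369 in sox8, 0.227% ± 0.0188 in pax5 and 0.568% ± 0.0217 in unc22 (SD, n = 4 each). The zfp1 shares of 0.0294%, 0.0240%, 0.0361% and 0.0685% spanned the sox8 shares of 0.0404% to 0.0490%, and the highest was again replicate 4.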

How the data were processed

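The authors deposited 1 table of RPKM for 28413 features and 48 whole-worm libraries; the submitters' processing notes name CASAVA 1.8.2 as well as Bowtie and edgeR. The reference transcripts and the handling of multiply aligned reads are not given in the sources used here, so features with a near-identical copy are uncertain. Whole reads and feature lengths were recovered from the RPKM for all 28413 features (within 3.84e-09 of whole reads, at a tolerance of 0.0001), giving 6894458 to 65663283 reads per library (median 23162610) with implied scaling factors of 0.929 to 1.073. A floor of 3 reads covers counting error only. Values were tested as log2(RPKM + 0.5), which understates changes of low features, with limma 3.58.1 in R 4.3.3 (1 mean for each of the 12 groups, trend and robust options), two-sided, Benjamini-Hochberg adjusted within each contrast and called at an adjusted p under 0.05. The fit was tested on simulated data. "Fold" limits refer to that scale.

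Named features are the 12 largest falls and 12 largest rises that reach 1 RPKM in their higher group without overlap of libraries, the 4 most abundant past 2-fold in each direction, the 6 most abundant of the 21 features low in sox8 and up to 10 of its called ones, and the 2 most changed between days in each direction. SMED30030681, SMED30002689, SMED30003400 and SMED30030679 are the most abundant of their pax5 classes and were chosen after their values were seen. The members and lists were chosen with earlier results of these data known. Python 3.11.15 (numpy 2.4.6, pandas 2.3.3, scipy 1.17.1, matplotlib 3.10.9) did the rest.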

Additional observations from a re-analysis of the deposited data

Results flagged for a closer look

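The levels of named features were checked in 120 groups of 4 libraries for a library far from the other 3, of which chance alone gives about 1 in 20, and 5 were found. SMED30003044 was highest in zfp1 replicate 4, at 1.65 RPKM. SMED30002134 was highest in zfp1 replicate 4, at 138 RPKM. SMED30002242 was highest in zfp1 replicate 4, at 2.15 RPKM, and lowest in unc22 replicate 4, at 18.6 RPKM. SMED30032042 was lowest in unc22 replicate 1, at 547 RPKM. All 3 of the zfp1 values come from the library with the mildest median fall.

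The zfp1 minus sox8 difference itself differed between days by limma's test of the interaction. From day 6 to day 12 it changed in 824 features, with SMED30020396 (-3.74), SMED30035904 (-3.63), SMED30032680 (1.16) and SMED30005372 (1.16) changing most by the rule for named features. From day 12 to day 18 it changed in 1963 features, with SMED30032042 (-3.03), SMED30022805 (-3.01), SMED30004187 (5.22) and SMED30029247 (5.04) changing most.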

How the results depend on the processing

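The alternatives were pseudocounts of 0.1 and 1, no filter and a minimum of 2 RPKM, the groups compared alone, a replicate block, quantile and median ratio scaling, equal depth and each library left out. Added after seeing the data were voom on recovered reads and the removal of the 2 shallow zfp1 libraries. The planned edgeR and DESeq2 fits on recovered reads were not run. Of 914 values of single features 873 kept their direction and their side of the threshold, and 301 of 338 counts stayed within 1.5 times. At 2-fold or more, higher features numbered 45 (pseudocount 0.1), 7 (pseudocount 1), 22 (equal depth) and 45 (voom), and 14 to 22 with 1 library left out. Lower features numbered 249 (pseudocount 0.1), 149 (pseudocount 1), 189 (equal depth) and 227 (voom), and 176 to 220 with 1 library left out. Day 12 calls fell to 1479 at equal depth (385 higher, 1094 lower) and to 1493 without the shallow libraries (468 higher, 1025 lower). They ranged from 2346 to 2900 with 1 library left out (706 to 831 higher, 1569 to 2069 lower), and 1709 were higher with quantile scaling. Day 6 calls were 71 with the groups alone and 373 at equal depth (382 to 1949 with 1 library left out). Day 18 calls were 4314 with the groups alone, 3674 at equal depth and 6057 with quantile scaling (4598 to 5021 with 1 library left out). Changes from day 6 to day 12 numbered 440 with the groups alone, 407 at equal depth and 475 without the shallow libraries (661 to 997 with 1 library left out), and from day 12 to day 18, 1141 at equal depth (1721 to 2056). Of these changes 46.9% and 43.2% were positive with quantile scaling, against 33% and 35.9%, and 20.2% from day 6 to day 12 with the groups alone. The features low in sox8 on days 6 and 18 were listed anew in each setting. Of them 5 were lower with the groups alone, at equal depth and without the shallow libraries (7 to 10 with 1 library left out). Higher were 1 with the groups alone, 2 with voom and 2 without the shallow libraries (1 to 4). The lists of features past 2-fold were also formed anew in each setting. Of the lower list 81 to 102 were lower and 9 to 15 higher in pax5 with 1 library left out. Of the higher list 1 was called in pax5 with pseudocount 1, with the groups alone and with voom (1 to 3 with 1 library left out). The higher list held 7, 12 and 45 features in those 3 settings. SMED30014876 ranged from -0.50 without zfp1 replicate 4 to 0.02 without zfp1 replicate 2. The cause of these moves was not tested. No pairing by replicate number was seen, as the deviations of same-numbered zfp1 and sox8 libraries correlated at 0.012, -0.026, 0.011 and -0.014. Counting error in low features weakens such correlations, so they cannot exclude a pairing. With the replicate block 2728 features were called (871 higher, 1857 lower), with 13 and 189 past 2-fold, and no count moved by over 1.5 times. Under the floor of 3 reads, as in SMED30010402, depth limits what can be said.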
